A study of Mus musculus with 48 samples.

Results

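The T helper cytokines described here are 9 genes taken by symbol from a list of secreted products of helper T cells: Ifng, Tnf, Il2, Il4, Il13, Il10, Il17a, Il21 and Ccl1. All 9 were among the 20300 genes of the count table of whole-tumor mixes, and 4 of them (Ifng, Tnf, Il2 and Il10) were among the 14363 genes of the table of CD11b+ cells. The name of the list holds only in part for the mix libraries: most UMIs (counted molecules) of Ifng, Ccl1, Il21 and Il17a lay in T-like cells, while most UMIs of Tnf and Il10 lay in myeloid cells and nearly all of Il4 in basophil-like cells. Cell fractions were mixed in equal amounts, and the paper states that the mix does not show how common each cell type was in the tumors. Shares of UMIs by class and levels over all kept cells therefore describe the libraries, not the tumors.

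Helper T cells are sorted by the cytokines they secrete into type 1 (interferon gamma, TNF, interleukin 2), type 2 (interleukins 4 and 13), type 17 (interleukin 17A) and follicular (interleukin 21) programs, with interleukin 10 made by regulatory cells and the chemokine CCL1 made by activated T cells as a ligand of CCR8. Several of these proteins are also made by cells that are not helper T cells, such as natural killer (NK) cells, basophils, macrophages and microglia. Their messages are short-lived, so a cell holds them mostly while it is being stimulated.

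GL261 glioma cells carrying a control hairpin (shNC) or a hairpin against P-selectin (shSELP) were implanted in the striatum of C57BL/6 males aged 6 weeks, and brains were pooled by 3 per group. In the mix, CD11b+ cells, CD45+ cells and cancer cells were combined in equal amounts and profiled as 2 shNC and 2 shSELP libraries (sample labels give day 16). In the CD11b experiment, CD11b+ cells were profiled as 1 shNC and 1 shSELP library (labels give day 21; the methods give day 17 without telling the experiments apart). The model is a transplanted mouse line in which only the tumor cells carry the hairpin, and nothing in the records says that the paired libraries came from separate animals, so p-values below measure only the spread between these libraries.

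The mix libraries held 2289 (shNC1), 2297 (shNC2), 2293 (shSELP1) and 2293 (shSELP2) cells with 22945972, 22626413, 17398121 and 25589350 UMIs. After a filter for genes detected and mitochondrial share, 2183, 2179, 2190 and 2174 cells were kept, 8726 of 9172. Median UMIs per kept cell were 9547, 8051, 6164 and 9879.5, so shSELP1 was the shallowest library. The CD11b libraries held 2862 cells each, of which 2731 (shNC) and 2804 (shSELP) were kept, with 12628177 and 11445676 UMIs in all.

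The targeted gene was looked at before the cytokines. Kept cells of the mix held 17, 25, 21 and 21 Selp UMIs in shNC1, shNC2, shSELP1 and shSELP2. Tumor-like cells, the ones that carry the hairpin, held 1, 0, 0 and 1 of them, on 3588065, 2739039, 636493 and 366750 UMIs of all genes. Endothelial-like cells held 8, 12, 15 and 7. The CD11b libraries held 4 Selp UMIs each. A knockdown could therefore not be seen at this depth, and the groups rest on the labels.

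Producing cells were named by fixed markers. T-like cells numbered 445, 457, 409 and 467 in shNC1, shNC2, shSELP1 and shSELP2, and were gated by detected transcripts into CD8-gated (239, 211, 243, 147), CD4-gated (89, 100, 81, 179), Foxp3-gated (48, 39, 31, 47) and cells without a gate (69, 107, 54, 94). The CD4-gated cells of shSELP2 were the most numerous of the 4 libraries. NK-like cells numbered 43, 93, 37 and 55. Macrophage-like cells numbered 852, 679, 438 and 739, and microglia-like cells 148, 202, 397 and 246. A further cluster, led by Chil3 and left unnamed, held 113, 146, 117 and 113 cells. Basophil-like cells numbered 4, 12, 0 and 2. The libraries differed in which cluster held most of a class: the macrophage-like cluster led by Ms4a7, Acp5 and Pf4 held 476, 325, 193 and 192 cells and was the largest in every library but shSELP2. Among microglia-like cells, the shallow cluster led by Crybb1 held 57, 87, 72 and 126 and was the largest in every library but shSELP1, where the cluster led by P2ry12 and Gpr34 was (45, 44, 226 and 77). A difference between groups in these classes thus mixes levels with cluster shares. Library shSELP1 also stood apart in cells other than producers: endothelial-like cells numbered 22, 32, 352 and 78. Erythroid markers stood at 0, 0, 611 and 0.274 CPM (the UMIs of a gene scaled to a common total for each sum of cells). Other shifts ran with the groups. Tumor-like cells numbered 232, 165, 44 and 32, and plasma cell markers stood at 1075, 635, 201 and 220 CPM. Neutrophil markers stood at 171, 162, 1641 and 452 CPM.

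Whether the tumor hairpin went with a change of a member was asked class by class, on UMIs summed per library (2 shSELP against 2 shNC), with edgeR's quasi-likelihood test and Benjamini-Hochberg adjustment over every gene tested. In all T-like cells, edgeR called 0 of the 8 members tested (0.0206% of all genes tested were called) and DESeq2 called 0; 1 was at an unadjusted p under 0.05 (9.79% of all genes were). Among CD8-gated cells, 0 of 4 members were called (0.0245% of all genes), 2 had p under 0.05 (10.4% of all genes did), and DESeq2 called 0. Among CD4-gated cells, 0 of 5 members were called (0% of all genes), 1 had p under 0.05 (4.13%), and DESeq2 called 0. In Foxp3-gated cells, 0 of 2 members were called (0% of all genes), 0 had p under 0.05 (5.23%), and DESeq2 called 0. In NK-like cells only Ifng could be tested; it was not called (0.101% of all genes were), its p was under 0.05 (as for 5.78% of all genes), and DESeq2 called 0 members. Macrophage-like cells gave 0 of 4 members called (1.34% of all genes), 1 with p under 0.05 (15.8%), and 0 by DESeq2. Microglia-like cells gave 0 of 3 called (0.533% of all genes), 1 with p under 0.05 (14.3%), and 0 by DESeq2. DESeq2's abundance filter left several members without an adjusted p, so its 0 says less there: Il2, Il10, Il13, Il17a, Il21 and Tnf in all T-like cells, Il2 and Tnf among CD8-gated cells, and Ifng and Il10 in microglia-like cells. Il4 had too few UMIs in these classes to be tested. A missed call does not show that levels were equal: with 2 libraries per group only differences well past the spread between libraries can be called. Nor does a full separation of the 2 shSELP from the 2 shNC libraries, as given for some members below, show a group difference. An exact permutation test gives it p 0.333, and how many of all genes separated was not counted.

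Median log2 fold changes of the members tested, beside those of all genes, were 0.02 against 0.01 in T-like, 0.05 against 0.01 in CD8-gated, -0.13 against 0.01 in CD4-gated, -0.11 against -0.00 in macrophage-like and 0.03 against 0.00 in microglia-like cells. On 2 members in Foxp3-gated cells the median was 0.17 against 0.00, and on 1 member in NK-like cells -0.65 against -0.01. A test of whether NK-like cells responded differently from T-like cells called 0 of 6 members (0.0222% of all genes). Of these, 1 was at p under 0.05 (3.36%), 0 were called by DESeq2, and the median was -0.06 against -0.05. Only Ifng had enough UMIs to be tested in NK-like cells alone, and Il10 and Il17a had 0 UMIs there. Beyond Ifng, this count and median thus say nothing of a response of NK-like cells. The same test of macrophage-like against microglia-like cells called 0 of 5 members (1.49% of all genes). Of these, 1 was at p under 0.05 (11.5%), 0 were called by DESeq2, and the median was 0.53 against 0.004. Estimates above 0 numbered 3 of the 5. Ccl1 could be tested in neither class alone and Il2 not in microglia-like cells, so this count and median include members that could not be tested in both classes.

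The background of genes called depended on single libraries. In all T-like cells edgeR called 2 genes, and 12, 289, 91 and 249 when shNC1, shNC2, shSELP1 or shSELP2 was left out. Among CD8-gated cells it called 2, and 48, 116, 1 and 41 with the same libraries left out in turn. The CD4-gated cells gave 0 at an adjusted p under 0.05 by edgeR, 260 at an unadjusted p under 0.05 and 0 by DESeq2; leaving out a library gave 0, 23, 18 and 12. The Foxp3-gated cells gave 0 by edgeR, 204 at an unadjusted p under 0.05 and 0 by DESeq2, and 0, 0, 19 and 55 with a library left out. NK-like cells gave 3, and 6, 5, 9 and 46. Macrophage-like cells gave 146 (63 higher and 83 lower in shSELP), and 360, 718, 196 and 4. Microglia-like cells gave 48 (28 higher, 20 lower), and 174, 100, 304 and 559. Scaling by library totals without TMM factors moved the macrophage split to 45 higher and 112 lower and the microglia split to 114 higher and 31 lower. For the differences in response, edgeR called 2 genes for NK-like against T-like (2, 5, 6 and 18 with a library left out) and 159 for macrophage-like against microglia-like (81 higher and 78 lower; 11, 42, 322 and 275 with a library left out). Without TMM factors the latter split was 35 higher and 153 lower, and its median log2 value moved from 0.004 to -0.149. The few genes called in lymphoid classes, named after their values were seen, were Gm12840 and 2010005H15Rik in T-like, Gzmc and Trbc1 in CD8-gated, and Gzmc, Gzmb and Ttr in NK-like cells, with Gzmc and Rgcc for NK-like against T-like cells. The Trbc1 call ended without shSELP1, the Gzmb call without shNC2, the Ttr call without shSELP1 (Ttr also leads an unnamed cluster of 1, 5, 56 and 11 cells) and the Rgcc call without any 1 of the 4 libraries. Other settings ended more of them: over all settings the NK-like calls held in 10 of 14 for Gzmc and 8 of 14 for Gzmb and Ttr, and Trbc1 held in 13 of 15. DESeq2 called 25 genes in all T-like cells, none of them among those 2 of edgeR.

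Ifng encodes interferon gamma, the effector cytokine of type 1 helper cells, cytotoxic T cells and NK cells. Over all kept cells, Ifng stood at 107, 122, 101 and 152 CPM in shNC1, shNC2, shSELP1 and shSELP2. CD4-gated cells held 1389, 2259, 1942 and 1767 CPM. CD8-gated cells held 640 (639.9), 263, 333 and 387 CPM. The shSELP values of both gates lay inside the shNC range, and shNC1 was lowest among CD4-gated cells and highest among CD8-gated cells. T-like cells without a gate held 500 (500.2), 341, 556 and 255 CPM. NK-like cells held 407, 506, 309 and 307 CPM, with both shSELP libraries below both shNC libraries. Foxp3-gated cells held 68.7, 64.2, 32.4 and 101 CPM, so the groups overlapped there.

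Myeloid cells held little Ifng: macrophage-like cells 3.36, 5.16, 1.13 and 3.15 CPM and microglia-like cells 1.63, 8.16, 6.05 and 10.5 CPM. By means over the 4 libraries (± SD), Ifng was highest in CD4-gated cells (1839 ± 363). T-like cells without a gate (413 ± 139), CD8-gated (406 ± 164) and NK-like cells (382 ± 94.9) followed and did not differ beyond their spread. Foxp3-gated cells came next (66.6 ± 28.2), above microglia-like cells (6.59 ± 3.78). Within T-like cells, Ifng averaged 1646 ± 354 CPM in cluster 4 against 421 ± 286 in cluster 1 and 447 ± 165 in cluster 12, so the higher level sat in a single cluster.

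Of 10824 Ifng UMIs in the mix (2442, 2758, 1744 and 3880), T-like cells held 94.0% and NK-like cells 3.44%. CD4-gated cells alone held 59.7% and CD8-gated cells 26.8%. The share of cells with at least 1 Ifng UMI was 69.5% of CD4-gated, 63.3% of CD8-gated, 57.5% of NK-like and 10.3% of Foxp3-gated cells. Because deeper cells show more genes, each cell was also thinned to 2000 UMIs, which gave 53.3%, 37.0%, 42.9% and 5.06%. Tumor-like cells, which should hold none, gave 1.90% (thinned 0.658%) and oligodendrocyte-like cells 1.97% (1.46%); macrophage-like cells at 2.47% (0.631%) and microglia-like cells at 2.32% (1.004%) lay close to that floor.

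By edgeR's quasi-likelihood test no class passed for Ifng. In NK-like cells the log2 fold change (shSELP over shNC) was -0.65 (standard error, SE, 0.22, p 0.00654, adjusted p 0.652), with 2 of 2 shSELP libraries below both shNC libraries, and it was -0.46 without shNC2. In all T-like cells Ifng stood at 707, 716, 674 and 858 CPM, and its estimate was 0.12 (SE 0.13, edgeR adjusted p 0.807). The CD4-gated estimate for Ifng was 0.02 (SE 0.18, edgeR adjusted p 0.998) and turned to -0.30 without shNC1. The CD8-gated estimate for Ifng was -0.28 (SE 0.29, edgeR adjusted p 0.767) and turned to 0.47 without shNC1, the library with the highest level, and to 0.23 with Scrublet calls left out, 3 of which were CD8-gated cells of shNC1. The response of Ifng in NK-like cells minus that in T-like cells was -0.82 (SE 0.28, p 0.00351, edgeR adjusted p 1).

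Ifng was concentrated in few cells. The highest cell of each library held 426, 552, 315 and 377 UMIs, or 17.4%, 20.01%, 18.1% and 9.72% of that library's Ifng UMIs. The 5 highest cells held 40.1%, 42.5%, 40.5% and 32.7%. Cells with at least 10 UMIs numbered 40, 46, 26 and 73 and held 70.8%, 74.9%, 65.8% and 78.0%. Library sums of Ifng are thus set by few cells, and shSELP2, which had the most CD4-gated cells, also had the most such cells.

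Of 1225 cells with Ifng, 1131 (92.3%) also carried a transcript of the T receptor complex, and 227 carried 3 NK markers. All 185 cells with at least 10 Ifng UMIs carried the T receptor complex; 122 of them (65.9%) held Cd4 and 62 (33.5%) held a Cd8 gene. Tbx21, the type 1 lineage factor, was detected in 60 of these 185 cells, and Gata3, the type 2 factor, in 69. None carried 3 basophil markers.

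Among macrophage-like cells with an Ifng UMI, 28 of 67 (41.8%) also held a T receptor transcript, against 10.7% of macrophage-like cells without Ifng, and 14 of the 67 were Scrublet doublet calls. Microglia-like cells with Ifng held it in 13 of 23 (56.5% against 7.22%), and dendritic-like cells in 8 of 13 (61.5% against 11.7%). Ifng in myeloid cells therefore often came with T cell transcripts. Of 9 tumor-like cells with Ifng, 0 held one, against 11.2% of those without. Whether doublets, free RNA or contact account for the myeloid values was not tested. For Tnf the shares with and without it were 11.7% against 11.1% of macrophage-like, 9.38% against 6.52% of microglia-like and 15.7% against 12.1% of dendritic-like cells. For Il10 they were 11.9% against 11.2%, 13.3% against 8.12% and, on 16 dendritic-like cells with Il10, 37.5% against 12.1%. In each of these classes, cells with a member were deeper than cells without it.

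**Figure D1:**
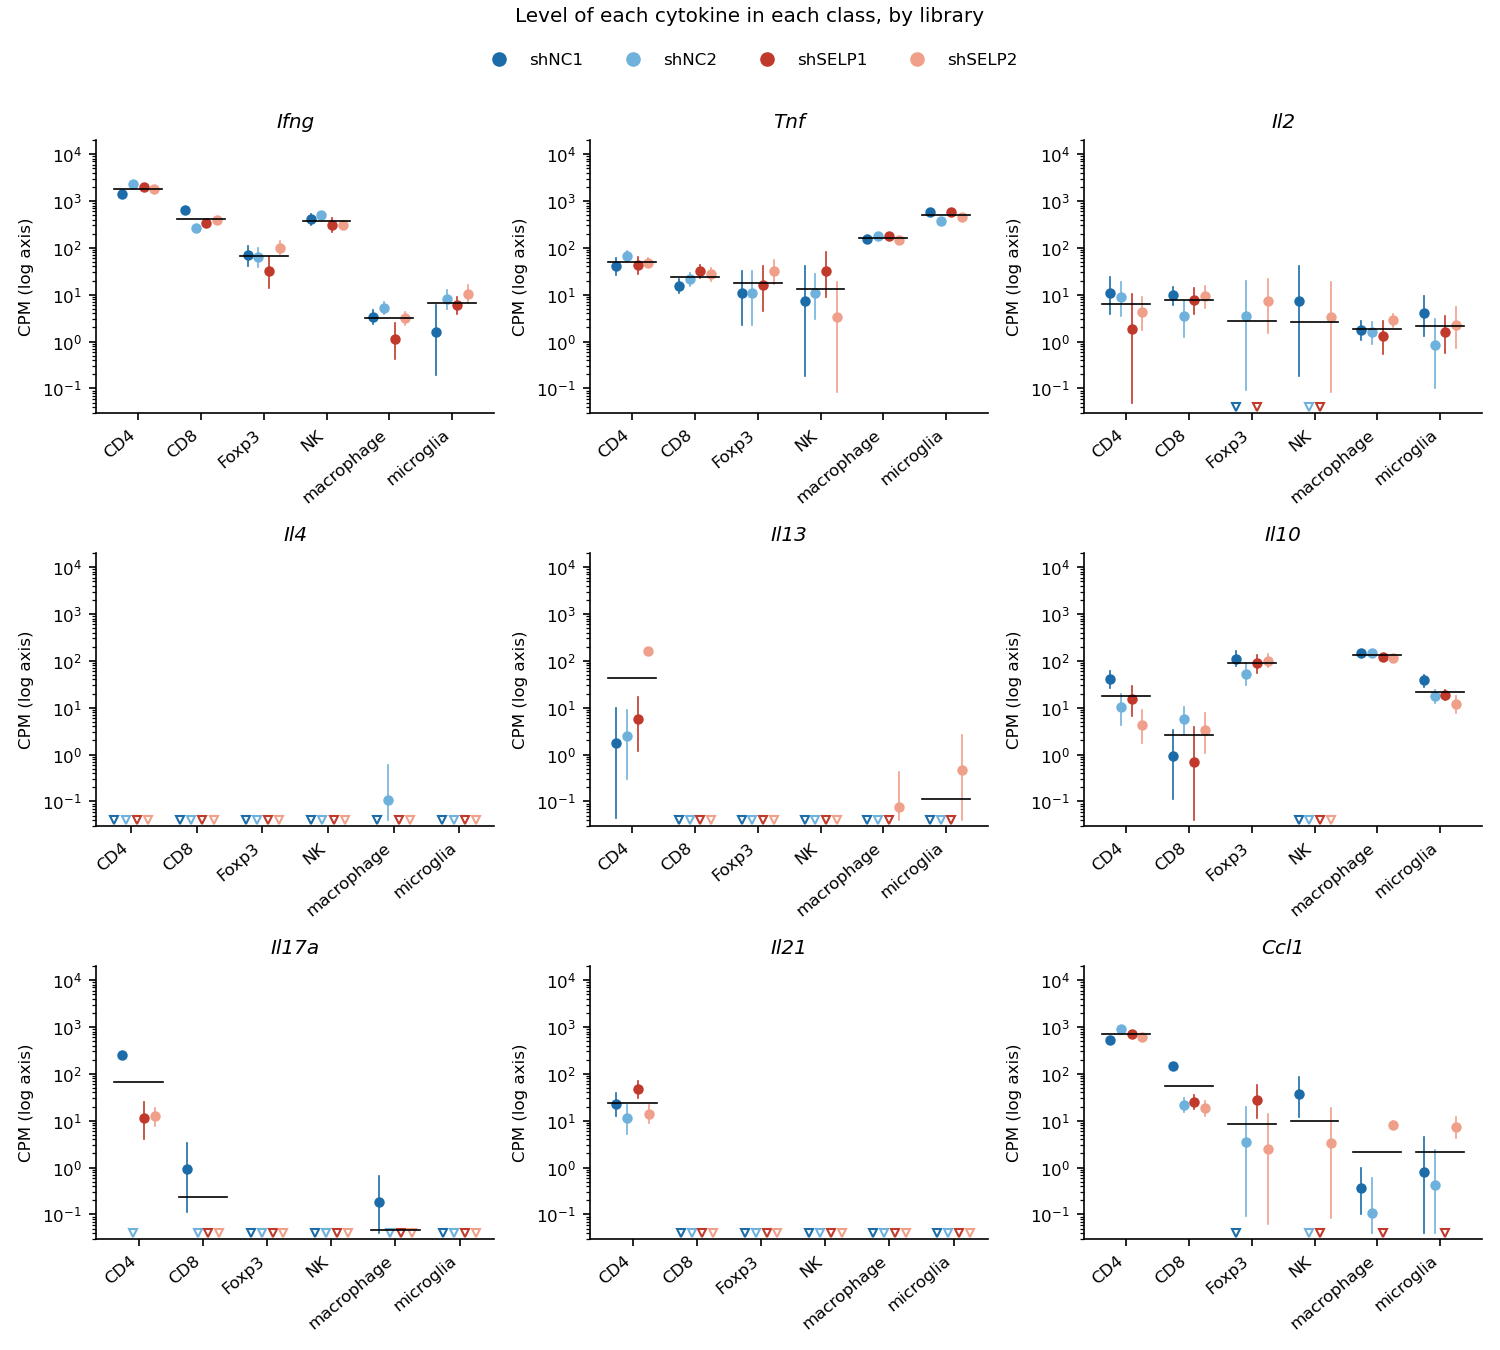
CPM of the 9 genes in 6 classes of the mix, by library, with 95% Poisson intervals of counting error and the mean of 4 libraries as a black line; open triangles mark 0. Ifng averaged 1839 CPM in CD4-gated cells, Tnf 497 in microglia-like cells and Il10 130.2 in macrophage-like cells.

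Tnf encodes tumor necrosis factor, a type 1 helper product that activated myeloid cells also make. Over all kept cells, Tnf stood at 117, 135, 202 and 137 CPM in shNC1, shNC2, shSELP1 and shSELP2. Microglia-like cells held 580 (579.8), 382, 582 and 444 CPM. Macrophage-like cells held 155, 178, 177 and 146 CPM. Over all kept cells both shSELP libraries lay above both shNC libraries, while within each of these myeloid classes the groups overlapped; shSELP1 also had the most microglia-like cells (397), and whether this accounts for its value was not tested. The Chil3-led cluster held 306, 294, 226 and 367 CPM. CD4-gated cells held 41.0, 65.8, 43.3 and 48.6 CPM. CD8-gated cells held 15.7, 21.3, 31.8 and 27.3 CPM, with both shSELP libraries above both shNC libraries. Foxp3-gated cells at 10.8, 10.7, 16.2 and 32.1 CPM and NK-like cells at 7.26, 10.9, 32.5 and 3.33 CPM rested on few UMIs.

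By mean, Tnf ran from microglia-like cells (497 ± 100.1) over the Chil3-led cluster (298 ± 57.7) and macrophage-like cells (164 ± 16.0) to CD4-gated (49.7 ± 11.2), dendritic-like (33.5 ± 12.8) and CD8-gated cells (24.0 ± 7.05). The last 3 did not each differ from their neighbor beyond the spread. Of 12727 Tnf UMIs, macrophage-like cells held 48.7%, microglia-like cells 37.6%, the Chil3-led cluster 7.24% and T-like cells 3.23%. Among macrophage-like clusters, Tnf averaged 115 ± 13.3 CPM in cluster 0, 189 ± 23.6 in cluster 2, 242 ± 65.3 in cluster 3 and 164 ± 103 in cluster 18, and among microglia-like clusters 613 ± 111 in cluster 9, 361 ± 205 in cluster 11 and 456 ± 55.7 in cluster 13. Tnf was detected in 64.5% of microglia-like (thinned 45.0%), 58.8% of macrophage-like (21.2%), 23.4% of CD4-gated (9.26%) and 13.7% of CD8-gated cells (4.41%), against 6.34% (1.10%) of tumor-like cells.

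In edgeR's quasi-likelihood tests, Tnf in CD8-gated cells had a log2 fold change of 0.74 (SE 0.28, p 0.0209, adjusted p 0.393), higher in 2 of 2 shSELP libraries, and 0.49 without shNC1. Tnf in all T-like cells stood at 21.9, 30.7, 31.1 and 36.0 CPM, without overlap of the groups, and its estimate was 0.37 (SE 0.20, adjusted p 0.569). The macrophage-like estimate for Tnf was 0.02 (SE 0.12, edgeR adjusted p 0.966) and the microglia-like estimate 0.03 (SE 0.20, edgeR adjusted p 0.967), so neither class moved by more than its spread. The macrophage-like response minus the microglia-like response was -0.02 for Tnf. No single cell carried Tnf: the highest cells held 68, 102, 146 and 65 UMIs, 2.53%, 3.35%, 4.18% and 1.86% of their libraries. Of 303 cells with at least 10 Tnf UMIs, 29 held a T receptor transcript.

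Il2 encodes interleukin 2, the growth factor that activated T cells release. It was scarce: 62, 44, 37 and 87 UMIs in shNC1, shNC2, shSELP1 and shSELP2, 230 in all, of which T-like cells held 38.3%. CD8-gated cells held 9.67, 3.45, 7.78 and 9.31 CPM and macrophage-like cells 1.77, 1.61, 1.32 and 2.85 CPM, with overlapping groups. Most cells with Il2 had 1 UMI (46 of 48, 41 of 42, 37 of 37 and 77 of 82). Of 209 cells with Il2, 89 held a T receptor transcript. Il2 was seen in 42 of 840 CD8-gated cells (thinned 0.979%) and 2.84% of macrophage-like cells (0.557%), against 0.846% (0%) of tumor-like cells. Among macrophage-like cells with Il2, 11.7% held a T receptor transcript, against 11.4% of those without. No T-like source can thus be named for most Il2 UMIs. Its estimate in all T-like cells was -0.08 (SE 0.40, edgeR adjusted p 0.964), and its sign changed under several settings.

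Il4 encodes interleukin 4, the type 2 cytokine that basophils also secrete. It gave 101, 460, 0 and 0 UMIs in shNC1, shNC2, shSELP1 and shSELP2. Of the 561 UMIs, 559 lay in 11 of the 18 basophil-like cells, and T-like and NK-like cells held 0. The other 2 UMIs lay in a tumor-like and a macrophage-like cell. Basophil-like cells held 11165 CPM in shNC1 and 9707 CPM in shNC2 on 4 and 12 cells; the 2 such cells of shSELP2 held none and shSELP1 had no such cell. The 9 cells with at least 10 Il4 UMIs held 552 UMIs, carried 4 to 8 basophil markers each and no Cd4. The highest cell held 84 UMIs (83.2%) in shNC1 and 166 (36.1%) in shNC2. Over all kept cells Il4 stood at 12.4 CPM in the sum of the shNC libraries. Against a floor of 3 counts (0.0700 CPM) in the shSELP libraries this is at least 176-fold. Since 460 of the 561 UMIs came from shNC2, the bound rests mostly on that library and would be lower from shNC1 alone. That bound describes 16 against 2 basophil-like cells and was not tested, since too few cells carried Il4 for a fit.

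Il13 encodes interleukin 13, made by type 2 helper cells, innate lymphoid cells and basophils. It gave 6, 70, 8 and 265 UMIs. Basophil-like cells held 5 of these in shNC1, 67 in shNC2 and 1 in shSELP2. CD4-gated cells held 1, 2, 3 and 257, or 1.78, 2.53, 5.65 and 158 CPM. The high value is a single cell: 1 CD4-gated cell of shSELP2 held 252 of the 265 UMIs (95.1%). That cell had 28304 UMIs in all, 9 of Cd4, 3 of Gata3, 43 of Ifng, 5 of Il17a and 0 of Il4, and was not a Scrublet call. Of 26 cells with Il13, 9 carried 3 basophil markers (73 UMIs), 10 held Cd4 (263 UMIs) and 4 carried 3 markers of innate lymphoid cells (5 UMIs). In all T-like cells Il13 had enough UMIs to be tested only through the shSELP libraries, mostly by the cell with 252. Its log2 fold change of 5.79 (SE 1.25, edgeR p 0.00077, adjusted p 0.226) thus describes mainly that cell. The calls without shNC2 (6.67) and without shSELP1 (6.56) include the same cell. With the highest cell of each library left out, chosen after the data were seen, Il13 had too few UMIs to be tested.

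**Figure D2:**
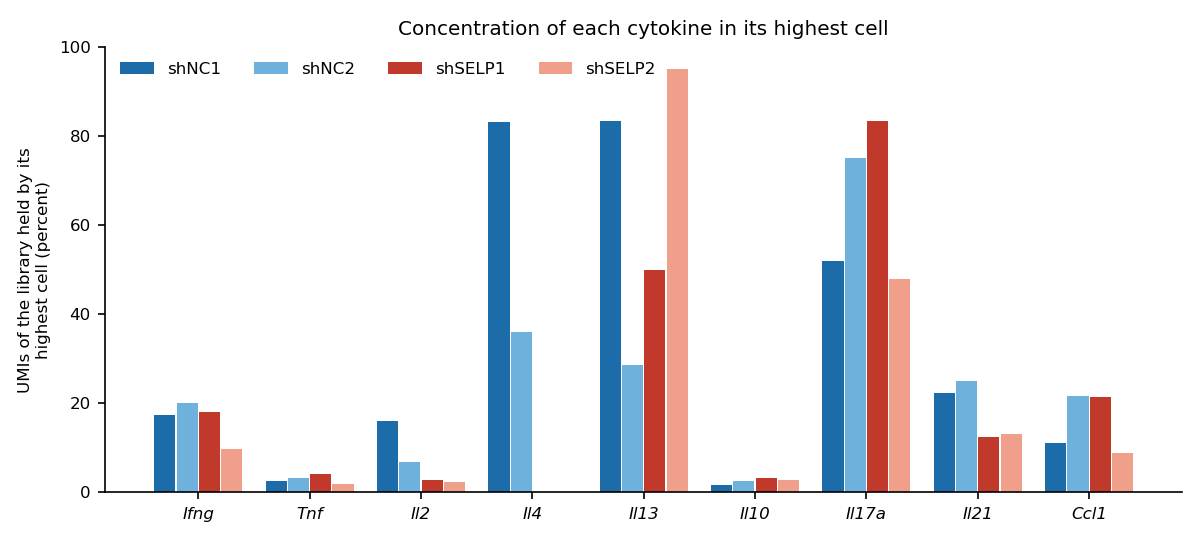
Percent of each library's UMIs of each gene that its highest cell held. Il13 in shSELP2 reached 95.1% and Tnf stayed at 1.86% to 4.18%.

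Il17a encodes interleukin 17A, the mark of type 17 helper cells and of gamma delta T cells. It gave 177, 8, 6 and 48 UMIs in shNC1, shNC2, shSELP1 and shSELP2, of which T-like cells held 99.2%. CD4-gated cells held 250 (249.7), 0, 11.3 and 12.3 CPM, and T-like cells without a gate 116, 11.9, 0 and 36.4 CPM. The groups overlapped, with shNC1 high and shNC2 near 0. The highest cell held 92, 6, 5 and 23 UMIs, or 51.98%, 75.0%, 83.3% and 47.9% of the library. In shNC1 the cell with 92 UMIs held 1 of Cd4, a cell with 26 held 3 of Trdc, and a cell with 22 held 4 of Cd4 and 12 of Ifng. In shSELP2 the cell with 23 UMIs held 11 of Trdc, and a cell with 14 held 7 of Cd4 and 16 of Ifng. Il17a thus came from both Cd4 cells and cells with gamma delta transcripts. Its T-like estimate was -1.83 (SE 0.91, p 0.0717, edgeR adjusted p 0.547); it was called at -2.78 without shNC2, -1.32 without shSELP1 and -3.43 without shSELP2, and turned to 1.67 without shNC1.

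Il21 encodes interleukin 21, the follicular helper cytokine. It gave 18, 12, 32 and 23 UMIs, 85 in all, of which T-like cells held 17, 11, 30 and 23. CD4-gated cells held 23.2, 11.4, 47.1 and 14.2 CPM, and the groups overlapped. All T-like cells held 5.16, 3.16, 12.1 and 5.34 CPM, with both shSELP libraries above both shNC libraries. CD8-gated, Foxp3-gated and NK-like cells held 0 Il21 UMIs. Of 52 cells with Il21, 45 held Cd4, the highest such share of any member. Il21 was seen in 9.58% of CD4-gated cells (thinned 3.39%). Its T-like estimate was 0.99 (SE 0.47, p 0.0594, edgeR adjusted p 0.522) and was called without shSELP2 (1.58, adjusted p 0.0348), and was 0.33 without shSELP1. The value of shSELP1 is the highest of the 4 and belongs to the shallowest library.

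Ccl1 encodes the chemokine CCL1, a ligand of CCR8 released by activated T cells. CD4-gated cells held 537, 913, 710.0 and 617 CPM in shNC1, shNC2, shSELP1 and shSELP2. CD8-gated cells held 150 (149.6), 21.9, 25.5 and 18.6 CPM. T-like cells without a gate held 243, 318, 21.4 and 81.8 CPM, with both shSELP libraries below both shNC libraries. For CD4-gated cells the shSELP values lay inside the shNC range, and for CD8-gated cells shNC1 alone stood out. Foxp3-gated cells held 0, 3.57, 28.3 and 2.47 CPM, NK-like cells 36.3, 0, 0 and 3.33 CPM, and macrophage-like cells 0.373, 0.107, 0 and 8.10 CPM. In that last value, 1 macrophage-like cell of shSELP2 held 105 UMIs.

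By mean, Ccl1 was highest in CD4-gated cells (694 ± 162), while CD8-gated cells (53.9 ± 63.9) did not differ from Foxp3-gated or NK-like cells beyond the spread. Cluster 4 of the T-like cells held 685 ± 266 CPM, against 122 ± 49.0 in cluster 12, the same order as for Ifng. Of 3338 Ccl1 UMIs (705, 977, 427 and 1229), T-like cells held 95.5%. Ccl1 was seen in 29.6% of CD4-gated (thinned 20.3%), 6.79% of CD8-gated (3.55%), 1.82% of Foxp3-gated (0.633%) and 0.406% of macrophage-like cells (0.111%), and in no tumor-like cell. Of 237 cells with Ccl1, 224 held a T receptor transcript and 148 (62.4%) held Cd4. The highest cells held 79, 212, 91 and 109 UMIs, 11.2%, 21.7%, 21.3% and 8.87% of their libraries.

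In CD8-gated cells the log2 fold change of Ccl1 was -1.93 (SE 0.64, p 0.0111, edgeR adjusted p 0.335), lower in 1 of 2 shSELP libraries than both shNC libraries. It was called without shNC2 (-2.69) and was 0.033 without shNC1, so the estimate rests on shNC1. Ccl1 in all T-like cells stood at 211, 280 (279.6), 172 and 254 CPM, with an estimate of -0.19 (SE 0.18, edgeR adjusted p 0.779). The CD4-gated estimate for Ccl1 was -0.13 and turned to 0.34 without shNC2.

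Il10 encodes interleukin 10, which restrains inflammation and is made by regulatory T cells and macrophages. Over all kept cells it stood at 74.1, 64.7, 43.2 and 64.0 CPM in shNC1, shNC2, shSELP1 and shSELP2. Macrophage-like cells held 143.5, 143.9, 119 and 114 CPM, with both shSELP libraries below both shNC libraries. Foxp3-gated cells held 112, 53.5, 89.0 and 101 CPM, with overlapping groups. Microglia-like cells held 38.3, 17.6, 18.7 and 11.9 CPM and CD4-gated cells 41.0, 10.1, 15.1 and 4.31 CPM; in both, shNC1 was highest, shSELP2 lowest and the groups overlapped. NK-like cells held 0 UMIs.

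By mean, Il10 was highest in macrophage-like cells (130.2 ± 15.7) and Foxp3-gated cells (89.0 ± 25.5). Microglia-like (21.6 ± 11.5) and CD4-gated cells (17.6 ± 16.2) lay below and not apart from each other beyond the spread. CD8-gated cells averaged 2.68 ± 2.37, and NK-like cells 0. Of 5534 Il10 UMIs, macrophage-like cells held 91.0%. Among macrophage-like clusters Il10 averaged 146 ± 23.4 CPM in cluster 0, 123 ± 23.2 in cluster 2, 81.6 ± 21.0 in cluster 3 and 159 ± 89.4 in cluster 18, so only cluster 3 stood below cluster 0 beyond the spread. Among microglia-like clusters it averaged 1.87 ± 0.962 in cluster 9, 15.4 ± 10.9 in cluster 11 and 35.9 ± 15.7 in cluster 13. Il10 was seen in 33.4% of macrophage-like (thinned 14.9%), 26.7% of Foxp3-gated (16.5%), 4.53% of microglia-like (2.26%) and 4.23% of CD4-gated cells (2.71%), against 0.634% (0.439%) of tumor-like cells.

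Il10 in macrophage-like cells had a log2 fold change of -0.23 (SE 0.09, p 0.0372, edgeR quasi-likelihood adjusted p 0.284), lower in 2 of 2 shSELP libraries. In microglia-like cells it was -0.78 (SE 0.34, p 0.0418, edgeR adjusted p 0.329); it was called at -1.38 without shNC2 and at -1.15 without shSELP1, and was -0.20 without shNC1. In CD4-gated cells it was -1.66 (SE 0.66, p 0.0225, edgeR adjusted p 0.997), and -0.39 without shNC1. The Foxp3-gated estimate was 0.21 and turned to -0.23 without shNC2. The macrophage-like minus microglia-like response was 0.55 for Il10 (SE 0.30, edgeR adjusted p 0.520), and 0.029 without shNC1. Of 163 cells with at least 10 Il10 UMIs, 23 held a T receptor transcript, and the highest cells held 28, 36, 25 and 47 UMIs.

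Members were also compared cell by cell within a class. Among CD4-gated cells with Ccl1, 121 of 133 (91.0%) also held Ifng, against 69.5% of all CD4-gated cells; thinned to equal depth, 71 of 90 (78.9%) did, against 53.3%. Among CD8-gated cells with Ccl1, 50 of 57 (87.7%) held Ifng, against 63.3% (thinned 55.2% against 37.0%). Ccl1 was thus found mostly in cells that also held Ifng. For CD4-gated cells with Il21, 29 of 43 (67.4%, thinned 60.0%) held Ifng, near the share of the class. With Tnf, 77 of 105 (73.3%, thinned 58.5%) held Ifng, and with Il10, 8 of 19 (42.1%) did. Il4 and Il13 shared 8 basophil-like cells, all of which remained after thinning. Tnf and Il10 shared 578 macrophage-like cells: 63.9% of 905 cells with Il10 held Tnf, against 58.8% of the class (thinned 24.6% against 21.2%).

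CD4-gated cells with Ccl1 were compared with those without it in lineage factors and other T helper cytokines, by library. Of 11 other cytokines, 6 were higher in the Ccl1 cells in all 4 libraries and 0 lower; of 12 lineage factors, 5 were higher and 2 lower. Over all 8350 genes with enough UMIs, 6.78% were higher and 10.7% lower. Csf2 averaged 427 ± 134 CPM with Ccl1 against 25.5 ± 9.15 without, and Tnfsf11 837 ± 224 against 469.5 ± 57.0. Ccl3 averaged 1329 ± 921 CPM against 305 ± 132. Maf was lower in all 4 libraries (166 against 338 CPM) and Runx3 higher (336 against 211 CPM). These genes were named after their values were seen, and cells with Ccl1 were also deeper (median 7653 against 5726 UMIs).

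CD4-gated cells with Ifng showed the same direction: 6 of 11 other cytokines were higher in all 4 libraries and 0 lower (9.51% and 7.45% of all genes), and 3 of 12 lineage factors were higher and 1 lower, with Csf2 at 199.8 ± 50.3 against 16.7 ± 27.4 CPM. Ikzf2 was lower with Ifng in CD4-gated cells (124 ± 37.7 against 298 ± 66.8 CPM) and in NK-like cells (51.0 against 260.4 CPM). In CD8-gated cells with Ifng, 4 of 13 lineage factors were higher and 1 lower in all 4 libraries, and 2 of 9 other cytokines higher and 1 lower (8.67% and 6.55% of all genes); Tbx21 was at 47.3 against 37.7 CPM and Ccl3 at 259 against 79.5 CPM. In NK-like cells with Ifng, 0 of 9 lineage factors were higher and 1 lower, and 2 of 6 other cytokines higher and 0 lower (8.19% and 7.19% of all genes), with Ccl3 at 1143 against 308 CPM. For CD4-gated cells with Il21, 0 of the 11 other cytokines were higher in all 4 libraries and 3 lower, and 0 of 12 lineage factors higher and 1 lower (3.89% and 12.6% of all genes). Macrophage-like cells with Tnf held more of 7 of 9 interferon gamma targets and 5 of 8 TNF targets in all 4 libraries, with 0 lower (9.77% and 7.94% of all 11706 genes were higher and lower). Those with Il10 held less of 3 of 9 interferon gamma targets, with 0 higher, and more of 3 and less of 2 of 8 TNF targets (7.40% and 11.7% of all genes). Cells with Tnf were deeper than those without (median 14487 against 11924 UMIs), as were those with Il10 (15356 against 12321). Cxcl1 was higher with Il10 (1011 against 562 CPM) and Chil3 lower (63.3 against 118 CPM). All of these are descriptions over 4 libraries, were not tested, and name genes chosen after their values were seen.

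**Figure D3:**
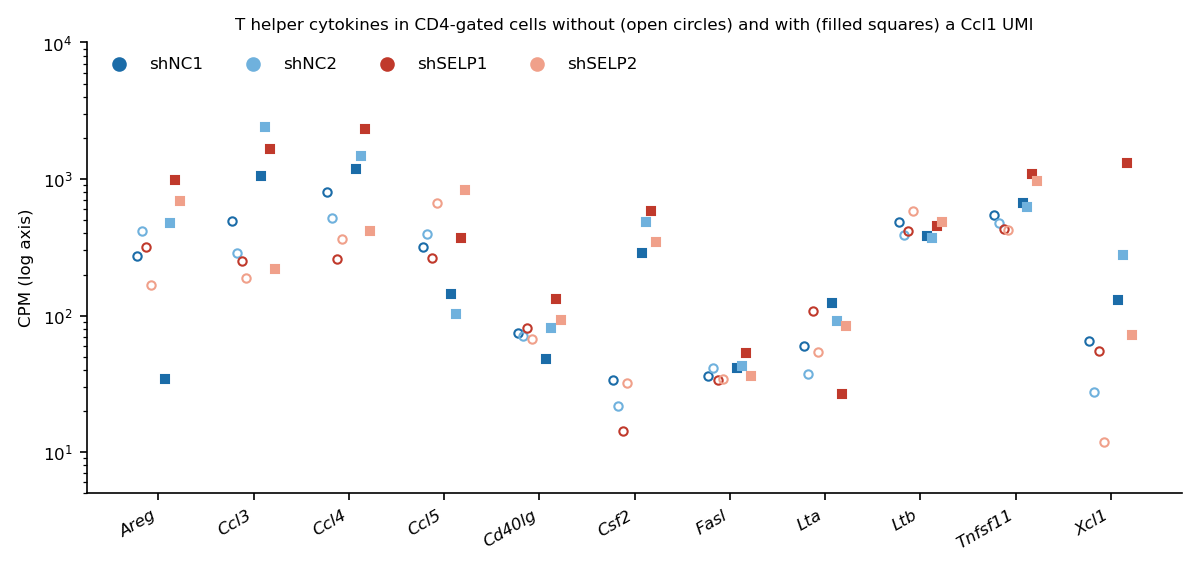
CPM of 11 other T helper cytokines in CD4-gated cells without (open circles) and with (filled squares) a Ccl1 UMI, by library. Csf2 averaged 427 CPM with Ccl1 and 25.5 CPM without.

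The genes whose levels ran most alike with each member were sought over 32 sums of 8 classes in 4 libraries, among 13905 genes. The 8 were named classes with at least 20 cells in every mix library. The Chil3-led cluster and B-cell-like cells (17 in shSELP1) were among those left out. Sums of a class share their cell type and sums of a library share its depth, so r is a description. Ifng ran with Cd247 (r 0.987) and Klrc1 (0.984), genes of T and NK cells. Tnf ran with Cx3cr1 (0.939), P2ry6 (0.936) and Cd22 (0.935). Cx3cr1 was among the fixed microglia markers, and Cd22 was not compared in B-cell-like cells. Il10 ran with Ms4a4a (0.920), Ms4a14 (0.914) and Tlr8 (0.914), genes of macrophages. Ccl1 ran with Gzmk (0.970), Fam169b (0.970) and Gstp3 (0.959). Il21 ran with Actn2 (0.9602), Ccr4 (0.931) and Il1rl1 (0.928). Il17a ran with Mcpt8 (0.939), Gm156 (0.856) and Gm47389 (0.844), Il4 with Klk1 (0.920), Gm15486 (0.857) and Reln (0.791), and Il13 with 1810009J06Rik (0.965), Klk1b27 (0.883) and Gm44040 (0.859). Those 3 members rest on few cells, and the number of sums that hold each partner was not counted, so r says little for them. All cells with at least 10 Il4 UMIs, and the basophil-like cells with as many Il13 UMIs, lay in the Chil3-led cluster. The r of Il4 thus leaves out its main producing cells, and that of Il13 its main basophil-like ones. Il2 had no close partner (Hemk1 0.725, Kif11 0.692, 1700097N02Rik 0.689).

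Genes that act before or after the members were read as lists, each beside the median log2 fold change of all genes tested. In all T-like cells (0.01 over 9705 genes, 9.79% of them at unadjusted p under 0.05), edgeR called 0 of 13 receptors of the members (5 at unadjusted p under 0.05, DESeq2 0, median 0.01). It called 0 of 14 lineage factors (5, DESeq2 1, median 0.06) and 0 of 11 other T helper cytokines (7, DESeq2 1, median 0.26). Signal genes gave 0 of 18 (2, DESeq2 0, median 0.11). Macrophage-like cells receive interferon gamma and TNF (all genes -0.00 over 10857, 15.8% of them at unadjusted p under 0.05). Interferon gamma targets there gave 0 of 9 called (1 at unadjusted p under 0.05, DESeq2 1, median 0.06), and TNF targets 0 of 8 (2, DESeq2 1, median 0.12). Receptor transcripts were present in the receiving classes: Ifngr1 averaged 1734 ± 176 CPM in NK-like, 746 ± 90.4 in T-like, 142 ± 13.5 in macrophage-like and 45.4 ± 6.97 in tumor-like cells.

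Targets of interleukins 4 and 13 in macrophage-like cells gave 2 of 8 called by edgeR, both lower (1.34% of all genes were called), and 3 by DESeq2. Of the 8, 6 were at an edgeR p under 0.05 (15.8% of all genes), the median was -1.18 and 3 estimates were above 0. Mrc1 was at 54.0, 51.8, 32.4 and 23.6 CPM and fell by a log2 fold change of 0.89 (edgeR quasi-likelihood adjusted p 0.0276), lower in 2 of 2 shSELP libraries. Ccl17 was at 4.58, 4.51, 0 and 0.15 CPM, with a log2 fold change of -5.19 (edgeR adjusted p 0.0101). It had enough UMIs to be tested only through the shNC libraries, so that fold change is not a measured size. Both calls ended without shSELP2, where Mrc1 was at -0.65 and Ccl17, at 0 CPM in shSELP1, at -8.25. The Mrc1 call also ended at resolution 0.4. In microglia-like cells, where 1 of 6 genes of that list was called (0.533% of 9011 genes) with a median of 0.32 (0.004 over all genes), Egr2 was at 19.5, 26.6, 51.0 and 52.2 CPM and rose by 1.05 (edgeR adjusted p 0.0445; no adjusted p from DESeq2), higher in 2 of 2 shSELP libraries; the call was lost in 3 of 13 settings, and the adjusted p reached 0.0578 with Scrublet calls left out. Of 10 cytokines that polarize helper cells, 2 were called in macrophage-like cells (median 0.20): Il6 was at 14.0, 17.1, 37.6 and 28.1 CPM and rose by 1.13 (edgeR adjusted p 0.0180), and Il12b was at 98.0, 77.1, 36.3 and 14.0 CPM and fell by 1.85 (edgeR adjusted p 0.0388; not called by DESeq2). Of 6 other T helper cytokines tested there, 1 was called (median -0.12, 3 of 6 estimates above 0; the lowest was Xcl1 at -1.99, adjusted p 0.0682). It was Ccl5, at 2316, 1564, 4349 and 4775 CPM, which rose by 1.297 (edgeR adjusted p 0.0152). These 3 calls also ended without shSELP2, where Il6 was at 1.34 and Il12b at -1.21, so the Il6 call was lost without a smaller estimate. At resolution 0.4, where the macrophage-like class took in more cells (965, 825, 555 and 852), Il6 was at 0.20 (adjusted p 0.837) and Il12b was not called; with Scrublet calls left out Il12b was not called either. No list gene was called by edgeR in T-like, CD8-gated, CD4-gated, Foxp3-gated or NK-like cells; DESeq2 called 1 lineage factor and 1 other T helper cytokine in all T-like cells and 1 other T helper cytokine in CD8-gated cells.

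The CD11b libraries, 1 per group, show levels of 4 members in sorted myeloid cells and allow no test of the groups; their intervals cover counting error only. A ratio past 1.5-fold was reached by 2 of 4 members (Ifng and Il2) beside 13.6% of 10845 genes. Ifng gave 12 UMIs in shNC and 88 in shSELP, 0.957 and 7.72 CPM, a ratio of 8.06 (95% interval 4.39 to 16.2). A single shSELP cell held 55 of the 88 (62.5%), and only 4 shNC and 7 shSELP cells held any Ifng, so the ratio rests on very few cells. In a cluster named T-like, of 16 and 19 cells, Ifng gave 11 and 61 UMIs. Only 1 of its 10 leading genes, Cd3g, was a T cell marker. Another, Prph, was also a leading gene of tumor-like cells in the mix, so that name is uncertain.

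Tnf gave 1762 and 2078 UMIs, 141 and 182 CPM, a ratio of 1.296 (1.22 to 1.38). Macrophage-like cells held 124 and 164 CPM (ratio 1.32, 1.23 to 1.42) and microglia-like cells 286 and 367 CPM (1.29, 1.12 to 1.47). Il10 gave 658 and 873 UMIs, 52.5 and 76.5 CPM, a ratio of 1.46 (1.32 to 1.62), and macrophage-like cells held 60.2 and 89.4 CPM (1.49, 1.34 to 1.65). In microglia-like cells Il10 rested on 17 and 12 UMIs, 11.9 and 9.08 CPM, a ratio of 0.765 (0.333 to 1.70), which spans 1. The share of macrophage-like cells with Tnf was 32% and 35.1% (thinned 17.6% and 22.6%), and with Il10 13.6% and 17.5% (7.96% and 11.4%). Il2 gave 21 and 11 UMIs, a ratio of 0.576 (0.251 to 1.25), which spans 1. With TMM factors the ratios were 7.58 (Ifng), 1.22 (Tnf), 1.37 (Il10) and 0.541 (Il2). For Il10 the macrophage-like difference had the opposite sign to that in the mix (log2 fold change -0.23 there); the sort and, by the labels, the day differ between the experiments, and these cannot be told apart.

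The places of the genes were read from an annotation of the same build as the alignment (mm10). Il4 and Il13 lie on the minus strand of chromosome 11 with 12654 bases between them, and Il2 and Il21 on the minus strand of chromosome 3 with 96799 bases between them. Il4 and Il13 shared cells in the mix, while Il2 and Il21 differed: Il21 lay in CD4-gated cells and Il2 had no T-like source for most UMIs. Activated T cells and basophils drive several of these genes through NFAT, whose core motif GGAAA was counted on both strands of the 250 bases upstream of each transcription start; a match on the opposite strand reads TTTCC. At least 1 match was found in 55.6% of 32851 promoters (median 1). Matches numbered 5 for Il4 (0.390% of promoters had as many; a second Il4 entry, chr11:53617339-53617588, had 0), 4 for Il13 (1.59%), 3 for Ccl1, Tnf and Il21 (6.39%), 2 for Il2 (21.4%), 1 for Ifng (55.6%) and 0 for Il17a; Il10 had no entry. Of the 8 members with an entry, 7 carried the motif, and a match is a description, not a site.

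The promoters of pairs found in the same cells, Il4 with Il13 and Ccl1 with Ifng, are given below from the RefSeq entries of GRCm38.p6, 5' to 3' on the strand of the gene, with matches in capitals. Il4 is chr11:53618666-53618915 (minus), Il13 chr11:53634703-53634952 (minus), Ccl1 chr11:82179813-82180062 (minus) and Ifng chr10:118440796-118441045 (plus).

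Il4: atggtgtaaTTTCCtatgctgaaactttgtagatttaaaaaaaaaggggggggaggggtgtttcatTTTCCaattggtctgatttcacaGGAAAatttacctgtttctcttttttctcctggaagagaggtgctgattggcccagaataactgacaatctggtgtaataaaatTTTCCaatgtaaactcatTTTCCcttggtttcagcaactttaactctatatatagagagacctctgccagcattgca
Il13: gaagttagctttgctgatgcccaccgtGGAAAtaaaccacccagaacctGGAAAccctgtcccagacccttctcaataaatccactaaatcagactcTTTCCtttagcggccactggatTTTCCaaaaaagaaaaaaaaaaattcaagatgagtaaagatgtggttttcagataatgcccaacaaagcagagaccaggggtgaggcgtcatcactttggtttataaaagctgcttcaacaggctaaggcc
Ccl1: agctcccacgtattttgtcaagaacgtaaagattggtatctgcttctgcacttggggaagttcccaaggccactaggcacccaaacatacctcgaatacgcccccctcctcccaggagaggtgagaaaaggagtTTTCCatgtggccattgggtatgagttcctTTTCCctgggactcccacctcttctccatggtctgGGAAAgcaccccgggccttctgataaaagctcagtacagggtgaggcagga
Ifng: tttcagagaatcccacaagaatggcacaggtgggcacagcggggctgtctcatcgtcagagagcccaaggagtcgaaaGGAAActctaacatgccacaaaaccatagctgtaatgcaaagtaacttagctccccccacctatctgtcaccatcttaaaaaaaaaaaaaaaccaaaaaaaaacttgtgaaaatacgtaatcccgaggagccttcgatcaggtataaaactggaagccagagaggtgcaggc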

How the data were processed

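The count values are deposited UMI counts that the authors made by aligning reads of Chromium 3' libraries (v2 per the sample records, v3 per the methods) to mm10 with Cell Ranger 1.3. The methods describe a filter of cells and a random draw per group, but the deposited tables are not exactly that draw: 106, 118, 103 and 119 mix cells and 131 and 58 CD11b cells failed the same filter here. The 48 sample entries are 8 sequencing entries for each of 6 libraries, matched to the tables by column prefix. Barcodes found in more than 1 library numbered 5 in the mix and 3 in CD11b. Of the 8 CD11b shSELP entries, 7 have a description that names the control; the group was taken from the titles and column prefix.

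The cell filter asked for 500 genes or more and a mitochondrial share of UMIs up to 10%. Clusters came from Seurat 5.3.0 in R 4.3.3 (2000 variable genes without the members, 12 components for the mix and 8 for CD11b, resolution 0.8), and classes were named by marker genes; names are "-like" since markers at this depth cannot prove a cell type, and gates rest on 1 UMI. Scrublet (scanpy 1.11.5, Python 3.11.15) called 76 of 8726 mix cells (0.871%) and 1 of 5535 CD11b cells, where it did not work; calls stayed in the main analysis, so doublets remain.

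UMIs were summed by class and library. edgeR 4.0.16 (quasi-likelihood, TMM, filter by expression, adjusted p under 0.05) tested shSELP against shNC, and a model with library and class terms tested differences in response; DESeq2 1.42.0 was the other tool. The tests were tested on simulated data: of 200 genes set to a log2 fold change of 2, 199 to 200 were recovered within classes, and 105 and 131 for differences in response, with 3 to 13 false calls. The simulated counts had the same fixed spread between libraries for every gene, not the spread of the data. Recovery thus gives no measure of power for members whose libraries differed more. The intervals of CD11b levels and ratios are Poisson and binomial at 95%.

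Members and lists were chosen with earlier results of these data known. Lists were other T helper cytokines, receptors of the members, lineage factors, signal genes, polarizing cytokines, and targets of interferon gamma, TNF and interleukins 4 and 13. The text names the 9 members whatever their value, list genes that edgeR called, up to 2 abundant genes of a list, and up to 3 genes most alike with each member (Pearson r of log2 CPM plus 10); other genes are named as chosen after their values were seen. Not in the mix table were Il3, Il5, Il9, Il24, Il13ra2 and Retnla of the lists. Promoter sequences are RefSeq entries of GRCm38.p6 and gene positions are GENCODE M21; 8 of 9 members had a promoter entry.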

Additional observations from a re-analysis of the deposited data

Results flagged for a closer look

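These differences in response, macrophage-like minus microglia-like log2 fold change, were singled out because the test of the difference itself passed in edgeR. They are for genes of the lists read beside the members, 2 shSELP against 2 shNC libraries; the cause was not tested, and the share of each cluster in both classes differed between libraries.

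For Il17ra, a receptor chain of interleukin 17A, the difference was -1.03 (edgeR adjusted p 0.0370), from -0.25 (macrophage-like) and 0.91 (microglia-like), and it was lost without shNC1, shNC2 or shSELP1. For Il1b, a polarizing cytokine, it was 0.72 (edgeR adjusted p 0.0140), from 0.30 and -0.38, and was lost without shNC1 or shNC2. For Il12b, of the same list, it was -0.97 (edgeR adjusted p 0.00685), from -1.85 and -0.77, and was lost without shNC1 or shNC2. For Vcam1, a TNF target, it was -1.50 (edgeR adjusted p 0.000192), from -1.63 and 0.05, and was lost without shNC1. For Mrc1, a target of interleukins 4 and 13, it was -2.24 (edgeR adjusted p 3.42e-05), from -0.89 and 1.39, with opposite signs in the classes. For Ccl24, also such a target, it was -3.64 (edgeR adjusted p 0.000433), from -2.69 and 1.19, and was lost without shNC1 or shNC2. For Egr2, another such target, it was -0.97 (edgeR adjusted p 0.0436), from 0.13 and 1.05, and was lost without shNC1, shNC2 or shSELP1 and with every deposited cell (adjusted p 0.0539). DESeq2 called Il1b, Il12b and Vcam1 too; Il17ra, Mrc1, Ccl24 and Egr2 fell under its abundance filter and got no adjusted p.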

How the results depend on the processing

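The numbers of genes called and the estimates this text prints were recomputed under other settings. For the members, 420 values of 31 results were compared. Of these, 362 kept their sign and, as in the main fit, were not called, 16 became calls (in 5 results) and 42 changed sign (in 20 results). The first count ignores the size of an estimate. Il10 in CD4-gated cells (-1.66), for example, ran from -2.41 to -0.39 without leaving it. For the other named genes, 294 values of 22 results gave 235 with the same sign and call, 56 that lost the call (in 19 results) and 3 that changed sign. Of 127 numbers of genes called, 66 moved by more than 1.5 times. Of 30 shares, 27 moved. Asking for more than 1 UMI can only lower a share and thinning takes UMIs away, so this count does not measure stability. The 4 CD11b ratios stayed, with TMM scaling as the only alternative and the counting interval as the limit. For the other moves the cause was not tested.

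In all T-like cells edgeR called 2 genes; DESeq2 called 25 (0 in common), every deposited cell gave 22, library totals without TMM 1, members among the variable genes 7, and no filter on low counts 254. CD8-gated cells gave 2, DESeq2 17 and no filter 201. CD4-gated cells gave 0 and no filter 42. Foxp3-gated cells gave 0 and no filter 26. NK-like cells gave 3, and DESeq2 0, every deposited cell 1, no TMM 1, no filter 8 and resolution 0.4 1. Macrophage-like cells gave 146, no filter 843 and resolution 0.4 50. Microglia-like cells gave 48, and DESeq2 80, Scrublet calls left out 23, no TMM 145, members among the variable genes 28 and no filter 346. For NK-like against T-like cells edgeR called 2, and DESeq2 1, every deposited cell 0, no TMM 6, no filter 1 and resolution 0.4 42. The classes themselves changed at some settings: NK-like cells numbered 228, but 540 with every deposited cell, 588 with members among the variable genes and 1143 at resolution 0.4, where their cluster was led by Gzma, Cd8b1 and Gzmb. For macrophage-like against microglia-like cells it called 159, DESeq2 70 and no filter 283.

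Leaving out each library in turn gave 12 to 289 genes called in T-like, 1 to 116 in CD8-gated, 0 to 23 in CD4-gated, 0 to 55 in Foxp3-gated and 5 to 46 in NK-like cells. The same gave 4 to 718 among macrophage-like and 100 to 559 among microglia-like cells, 2 to 18 for NK-like against T-like and 11 to 322 for macrophage-like against microglia-like cells. With 2 against 2 libraries, an exact permutation test cannot go below p 0.333.

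The labels number the libraries alike in both groups, so a fit with a replicate block was made. Libraries of the same number share only that number: over genes, r between the number 1 minus number 2 difference of shNC and that of shSELP was -0.0825 to 0.121, so the block was not used in the main analysis. With the replicate block, genes called were 214 in T-like, 61 in CD8-gated, 19 in CD4-gated, 23 in Foxp3-gated, 5 in NK-like, 739 among macrophage-like and 431 among microglia-like cells. Members it called were Ccl1 in CD8-gated cells (-1.56, edgeR adjusted p 0.00896), Il13 in T-like cells (5.65) and Il10 in microglia-like cells (-0.92, edgeR adjusted p 0.0201). The Il13 value includes the single high cell of shSELP2 described above. The differences in response have no block fit since their library term already holds the number.

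Estimates that changed sign under other settings were these. Ccl1 in CD4-gated cells (-0.13) became 0.032 with the highest cell of each member left out, and without a library ran from -0.48 to 0.34. Ifng in CD8-gated cells (-0.28) became 0.23 with Scrublet calls left out, and without a library ran from -0.76 to 0.47. Il10 in T-like cells (-0.19) became 0.13 at resolution 0.4, and without a library ran from -0.49 to 0.18. Il2 in T-like cells (-0.08) became 0.28 with Scrublet calls left out, 0.27 with every deposited cell, 0.30 with the highest cell left out and 0.32 with members among the variable genes, and without a library ran from -0.53 to 0.53.

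Tnf in macrophage-like cells (0.02) became -0.083 with the highest cell left out and -0.052 without TMM, and without a library ran from -0.11 to 0.15. Tnf in microglia-like cells (0.03) became -0.00358 with every deposited cell, and without a library ran from -0.28 to 0.39. The Tnf response of NK-like minus T-like cells (-0.08) became 0.092 by DESeq2, 0.45 with the highest cell left out, 0.0198 without TMM and 0.37 at resolution 0.4, and without a library ran from -1.89 to 1.32. The Tnf response of macrophage-like minus microglia-like cells (-0.02) became 0.025 with every deposited cell, and without a library ran from -0.40 to 0.38. The Gzmc response of NK-like minus T-like cells (-2.15) became 1.84 with every deposited cell, 2.89 with members among the variable genes and 2.57 at resolution 0.4, the settings in which the NK-like class was the larger population given above.

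Others changed sign only when a library was left out. In T-like cells, Ccl1 ran from -0.47 to 0.0304, Ifng from -0.037 to 0.24 and Il17a from -3.43 to 1.67. In CD4-gated cells, Ifng ran from -0.30 to 0.45, Il21 from -0.20 to 1.505 and Tnf from -0.50 to 0.22. In CD8-gated cells, Ccl1 ran from -2.69 to 0.033 and Il2 from -0.11 to 1.31. In Foxp3-gated cells, Ifng ran from -0.99 to 0.60 and Il10 from -0.23 to 0.86. Il2 in macrophage-like cells ran from -0.30 to 0.82, and Ifng in microglia-like cells from -0.078 to 2.15.

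With 2 libraries per group of pooled brains, and 1 per group for CD11b, no spread between animals can be measured. Il4, Il13 and Il17a rest on a few cells, and their levels say little about the libraries. Gates by transcripts miss cells that hold none, and shallow cells most of all. Free RNA and doublets were not removed, and tumor-like cells showed some Ifng and Tnf. CD11b shSELP entries name the control in their description. Message levels do not give secreted protein, and Il4, Il13, Il17a, Il21 and Ccl1 were not in the CD11b table.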
